A study of Homo sapiens with 6 samples.

Results

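The guidance genes described here are the Eph receptors and ephrins, the semaphorins with their plexin and neuropilin receptors, the netrins with DCC, neogenin and the UNC5 receptors, and the Slits with the Robo receptors. They were taken by a rule on gene symbols, chosen with earlier results of these data known, and were 70 of the 24580 rows of the deposited expression table. RNA sequencing was done on LoVo-HM, which the labels call a highly metastatic subline, and on wild-type LoVo, an established human colorectal cancer cell line, with no treatment recorded for either. Each line had 3 libraries. How LoVo-HM was made is not in the labels, nor whether it is 1 clone or whether the libraries of a line came from separate cultures, so p-values measure the spread between these libraries, which may be technical.

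Guidance molecules were first known for steering growing axons, and epithelial and tumour cells use the same systems at cell contacts and during movement. Ephrins are membrane-bound ligands read by Eph receptor tyrosine kinases on the neighbouring cell. A-type ephrins are held by a lipid anchor and B-type ephrins cross the membrane. In the intestinal crypt EphB receptors and ephrin-B ligands keep cell layers in position. Semaphorins signal through plexins, and most of the secreted class 3 members need a neuropilin as co-receptor. Netrin binds DCC, neogenin and UNC5 receptors, and DCC takes its name from its deletion in colorectal cancer. Slits are secreted proteins that bind Robo receptors and mostly repel.

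Levels are FPKM (fragments counted per gene, scaled to transcript length and library size) and are given for LoVo-HM replicates 1, 2 and 3 and then LoVo replicates 1, 2 and 3. A difference in parentheses is log2(FPKM + 1) in LoVo-HM minus that in LoVo, ± SE, and on this scale low genes appear to change less than they do. The limma test took in 14487 genes whose mean reached 0.5 FPKM, and adjusted p-values are Benjamini-Hochberg values over these genes. A gene passed the test when its adjusted p was under 0.05. Positions of genes are from GENCODE 29 and those of promoters from RefSeq, both on GRCh38.

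Library totals were 424624 to 428265 FPKM in LoVo-HM, against 434108 to 439082 FPKM in LoVo, and the read depth is unknown, so no counting intervals are given. Of 12 colorectal epithelial markers, 7 were high enough to test, and 5 rose while 2 fell. These are 71.4% higher and 28.6% lower, against 21.8% and 23.1% of all tested genes. The 5 that rose were KRT20 (1.96 ± 0.118), KRT19 (1.88 ± 0.052), CDX2 (0.74 ± 0.065), KRT18 (0.65 ± 0.035) and KRT8 (0.17 ± 0.033). Mean CDX2 was 14.7 FPKM in LoVo-HM, against 8.39 FPKM in LoVo. Mean KRT20 was 2.92 FPKM in LoVo-HM, against 0 FPKM in LoVo. Those that fell were CDH1, at 7.91 ± 0.359 FPKM in LoVo-HM, against 48.0 ± 1.38 FPKM in LoVo (-2.46 ± 0.055), and EPCAM, at 51.7 ± 2.60 FPKM in LoVo-HM, against 128 ± 1.99 FPKM in LoVo (-1.29 ± 0.048, SD, n = 3 each). The 12 had a summed level of 2616 to 2721 FPKM in LoVo-HM, against 2016 to 2071 FPKM in LoVo, mostly from the keratin genes KRT8, KRT18 and KRT19. VIL1, CDX1 and GPA33, which mark intestinal epithelium, were listed at 0 in all 6 libraries, and CDH17 and LGALS4 reached at most 0.245 FPKM. Guidance genes are also expressed by neurons and endothelial cells. Of 10 neuronal markers, 8 were too low to test, 4 of them listed at 0 throughout (ELAVL4, NEUROD1, SNAP25 and STMN2), while TUBB3 rose (1.36 ± 0.064) and SYT1 fell (-1.14 ± 0.093). The summed neuronal level was 71.6 to 77.9 FPKM in LoVo-HM, against 34.4 to 38.4 FPKM in LoVo. Most of it came from TUBB3, with a mean of 71.6 FPKM in LoVo-HM, against 27.4 FPKM in LoVo. SYT1 had a mean of 3.47 FPKM in LoVo-HM, against 8.82 FPKM in LoVo. All 6 endothelial markers were below the test limit, with sums of 0.508 to 0.953 FPKM in LoVo-HM, against 0.218 to 0.280 FPKM in LoVo, and PECAM1 was listed at 0. The 7 fibroblast markers summed to 4.92 to 5.75 FPKM in LoVo-HM, against 4.83 to 6.36 FPKM in LoVo, nearly all from COL1A1. The 5 leukocyte markers summed to at most 0.404 FPKM in LoVo-HM, against 0.541 FPKM in LoVo, and PTPRC was listed at 0. The part of these markers in the results was not tested.

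Of the 70 guidance genes, 48 passed the limit on low values and were tested. Among these, 29 differed between the lines, 60.4% where 44.9% of all tested genes did. Higher in LoVo-HM were 9 members, 18.8% against 21.8% of all tested genes, a share near the background. Lower in LoVo-HM were 20 members, 41.7% against 23.1% of all tested genes. In bulk RNA, fewer cells expressing a gene and less of its RNA per cell cannot be told apart. The median log2 difference of the 48 tested members was -0.16, and that of all tested genes was 0.003. Changes of at least 2-fold on the log2(FPKM + 1) scale were seen in 8 members, 16.7% against 6.56% of all tested genes. They were upward in 2 members (4.17%, against 2.37% of all tested genes), SLIT2 and EFNA5. They were downward in 6 members (12.5%, against 4.18%), EFNB1, SEMA5A, SEMA4A, EPHA1, SEMA4B and UNC5A. The 3 libraries of one line did not overlap with those of the other for 33 of the 48, 68.8% where 55% of all tested genes did not overlap. The other 22 members were too low to test, none above 0.757 FPKM in any library, and 7 of them were listed at 0 in all 6 libraries (EPHA5, EPHA6, SEMA6D, UNC5D, SLIT3, ROBO2 and ROBO4).

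**Figure D1:**
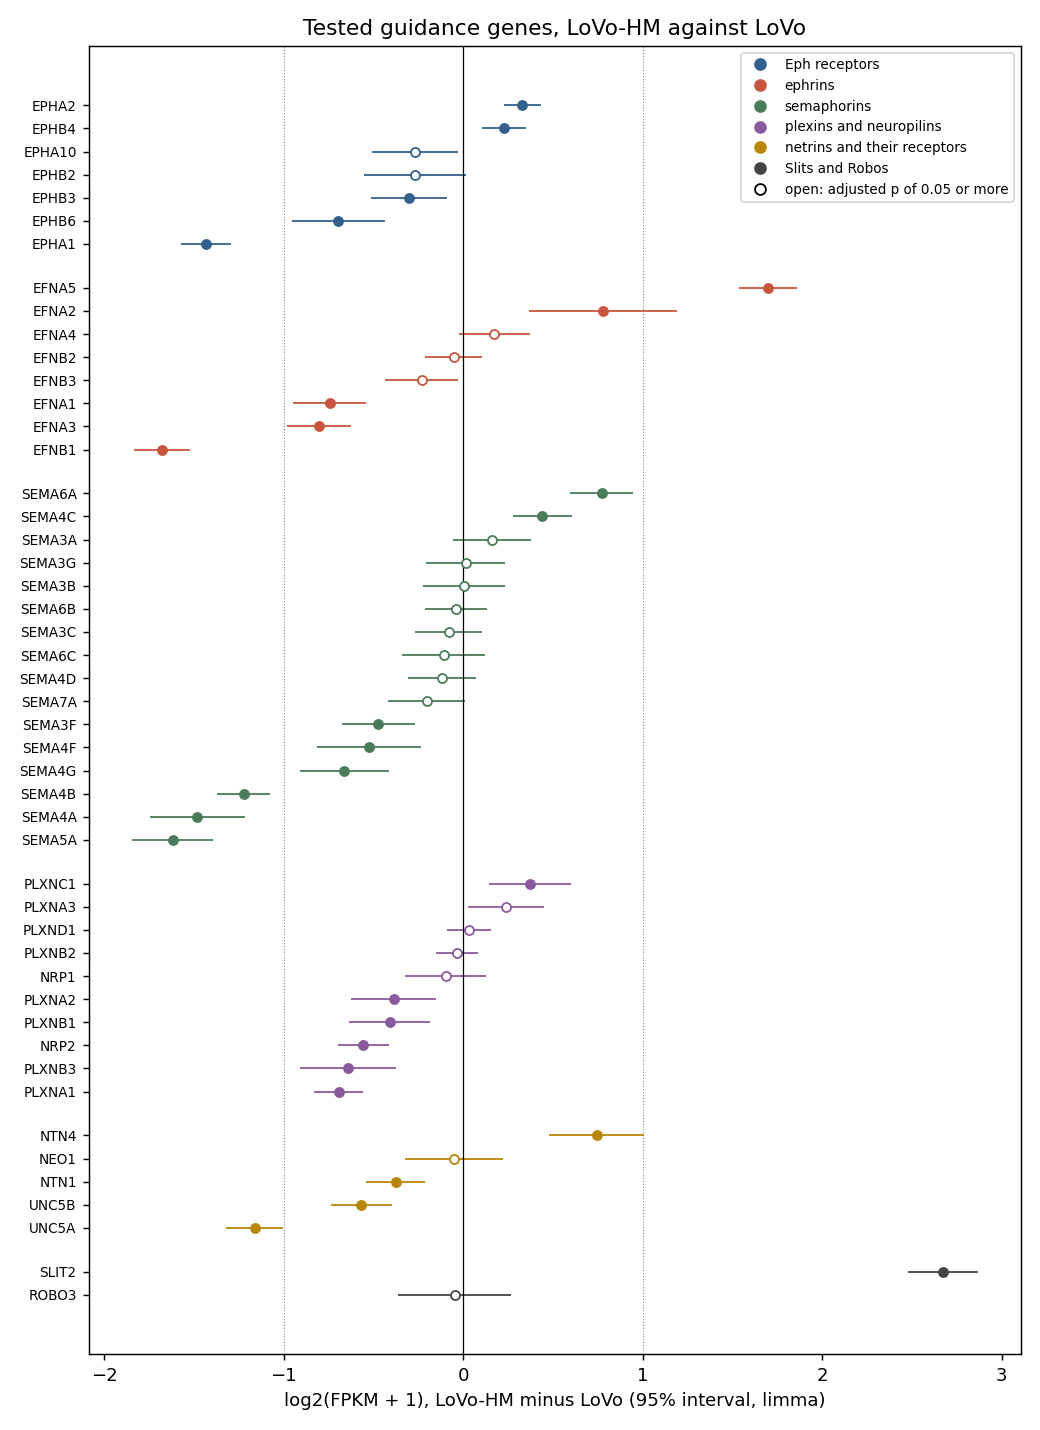
Log2(FPKM + 1) difference, LoVo-HM minus LoVo, of the 48 tested guidance genes by family, with 95% intervals from limma on the x axis. Filled points passed the test (adjusted p under 0.05) and dotted lines mark 2-fold; SLIT2 at 2.67 and EFNB1 at -1.68 are the extremes, and 20 of the 29 filled points lie left of 0.

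Promoter sequences are shown for the members with the largest changes that have 1 RefSeq start, 2 that rose (SLIT2 and EFNA5) and 2 that fell (SEMA5A and EFNB1). Each runs from 250 bases before to 50 bases after the RefSeq start, 5′ to 3′ on the strand of the gene, in GRCh38.p14. Capitals mark GC boxes, GGGCGG or its reverse complement CCGCCC. SLIT2 lies on the plus strand at chr4:20251655-20251954, EFNA5 on the minus strand at chr5:107670888-107671187, SEMA5A on the minus strand at chr5:9546026-9546325 and EFNB1 on the plus strand at chrX:68828771-68829070.
SLIT2: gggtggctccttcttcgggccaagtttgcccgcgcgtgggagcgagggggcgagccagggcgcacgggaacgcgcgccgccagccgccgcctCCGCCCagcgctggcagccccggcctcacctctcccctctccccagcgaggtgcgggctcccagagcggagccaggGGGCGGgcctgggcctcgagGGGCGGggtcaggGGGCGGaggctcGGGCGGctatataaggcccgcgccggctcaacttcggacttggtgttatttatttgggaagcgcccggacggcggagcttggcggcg
EFNA5: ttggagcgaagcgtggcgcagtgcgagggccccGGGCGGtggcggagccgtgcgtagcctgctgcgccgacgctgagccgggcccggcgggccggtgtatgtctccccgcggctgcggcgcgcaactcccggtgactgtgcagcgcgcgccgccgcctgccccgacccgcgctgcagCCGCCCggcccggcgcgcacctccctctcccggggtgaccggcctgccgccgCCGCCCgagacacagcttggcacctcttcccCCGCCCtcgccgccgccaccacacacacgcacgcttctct
SEMA5A: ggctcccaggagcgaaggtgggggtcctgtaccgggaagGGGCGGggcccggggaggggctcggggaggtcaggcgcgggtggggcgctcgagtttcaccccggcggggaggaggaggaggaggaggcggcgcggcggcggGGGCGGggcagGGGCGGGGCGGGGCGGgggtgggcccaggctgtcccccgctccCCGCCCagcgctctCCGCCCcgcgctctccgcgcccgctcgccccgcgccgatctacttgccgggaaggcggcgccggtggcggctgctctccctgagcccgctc
EFNB1: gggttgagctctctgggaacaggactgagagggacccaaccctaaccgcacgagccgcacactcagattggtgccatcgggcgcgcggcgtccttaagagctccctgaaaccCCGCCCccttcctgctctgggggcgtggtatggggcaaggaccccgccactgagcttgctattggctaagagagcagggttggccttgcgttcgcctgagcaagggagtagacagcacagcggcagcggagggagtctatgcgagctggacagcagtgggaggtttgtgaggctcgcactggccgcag

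The ephrin genes EFNA4, EFNA3 and EFNA1 are neighbours on the plus strand of chromosome 1, EFNA4 ending 9.3 kb before EFNA3 and EFNA3 ending 39.9 kb before EFNA1. Their promoters are shown because EFNA3 and EFNA1 fell while EFNA4 did not pass, as given with the ephrins. They lie at chr1:155063490-155063789, chr1:155078587-155078886 and chr1:155127626-155127925.
EFNA4: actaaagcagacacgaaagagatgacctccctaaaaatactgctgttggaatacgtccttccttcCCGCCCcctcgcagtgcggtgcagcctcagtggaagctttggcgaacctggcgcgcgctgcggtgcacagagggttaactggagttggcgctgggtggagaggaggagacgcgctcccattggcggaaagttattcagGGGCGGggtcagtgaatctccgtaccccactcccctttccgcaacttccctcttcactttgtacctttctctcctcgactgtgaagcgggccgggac
EFNA3: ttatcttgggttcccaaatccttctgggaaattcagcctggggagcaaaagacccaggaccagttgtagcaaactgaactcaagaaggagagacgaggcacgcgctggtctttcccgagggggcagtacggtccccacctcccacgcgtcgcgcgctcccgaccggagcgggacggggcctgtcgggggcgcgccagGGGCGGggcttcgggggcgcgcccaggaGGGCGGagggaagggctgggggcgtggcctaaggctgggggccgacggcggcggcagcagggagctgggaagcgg
EFNA1: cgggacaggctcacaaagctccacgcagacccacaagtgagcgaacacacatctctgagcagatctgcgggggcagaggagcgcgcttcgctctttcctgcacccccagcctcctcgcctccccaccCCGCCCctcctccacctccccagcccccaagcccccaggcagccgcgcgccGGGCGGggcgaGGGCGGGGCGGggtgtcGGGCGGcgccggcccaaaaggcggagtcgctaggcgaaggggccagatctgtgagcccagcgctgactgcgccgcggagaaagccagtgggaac

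All 7 of these windows hold at least 1 GC box, which 45.0% of the 35116 RefSeq promoters of the same length hold on either strand. SEMA5A has 7 matches, some overlapping each other, SLIT2 and EFNA1 have 5 each, EFNA5 has 4, EFNA4 and EFNA3 have 2 each and EFNB1 has 1. The E-box CACCTG (or CAGGTG), a target of the repressors ZEB1 and SNAI1, is in none of the 7 windows and in 20.6% of all promoters. The exact sequence TATAAA (or TTTATA), a form of the TATA box, is in none of them and in 11.5% of all. Other forms of the TATA box were not searched for, and the SLIT2 window holds the close variant TATATAAG. CTTTGA (or TCAAAG), the core of the TCF/LEF site, is in none of the windows and in 12.9% of all promoters. CpG dinucleotides number 47 in EFNA5, 39 in SEMA5A, 36 in SLIT2, 28 in both EFNA3 and EFNA1, 20 in EFNA4 and 18 in EFNB1. Promoters were found for 60 of the 70 members, with several starts for some. Over these, the median number of CpGs was 36.0 for the 8 matched members that rose, 26.25 for the 18 that fell, 26.0 for the 14 that did not pass and 19.0 for the 20 that were too low to test, and it was 14.0 over all 27305 symbols. A GC box was in promoters of all 8 that rose, all 18 that fell and all 14 that did not pass, so it did not separate these classes. It was in 13 of the 20 too low to test and in 48.3% of all symbols. CACCTG was in promoters of 0 of the 8 that rose, 6 of the 18 that fell and 5 of the 14 that did not pass, where 24.1% of all symbols hold it. These are descriptions of the windows, and which start each line uses is not known. RefSeq and GENCODE starts can differ. The SLIT2 window ends at 20251954, before the GENCODE start of the gene at 20253260. The EFNA1 window lies inside the GENCODE gene, which runs from 155127460 to 155134857.

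Slits and Robos held the tested guidance gene with the largest increase on the log2(FPKM + 1) scale. SLIT2, a secreted repellent (ENSG00000145147, chromosome 4, 20253260 to 20620561), was at 6.46, 6.52 and 6.28 FPKM in LoVo-HM, against 0.207, 0.149 and 0.130 FPKM in LoVo. Every LoVo-HM library stood far above every LoVo library. The mean was 6.42 ± 0.128 FPKM in LoVo-HM, against 0.162 ± 0.0402 FPKM in LoVo (SD, n = 3 each), a 39.6-fold ratio of FPKM, and the log2 difference was 2.67 ± 0.085 (limma adjusted p = 4.63e-08). With a pseudocount of 0.1 in place of 1 it was 4.65.

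Its relative SLIT1 was too low to test and was lower in LoVo-HM, at 0.0655, 0.0394 and 0.0356 FPKM in LoVo-HM, against 0.400, 0.256 and 0.510 FPKM in LoVo. These groups did not overlap, and SLIT1 shares exon sequence with the readthrough gene ARHGAP19-SLIT1, so its value is uncertain. Of the 4 Robo receptors only ROBO3, a divergent member, was high enough to test. It was at 3.40, 3.53 and 3.45 FPKM in LoVo-HM, against 2.65, 4.35 and 4.02 FPKM in LoVo, and did not pass (-0.05 ± 0.138, 95% interval -0.36 to 0.27, limma adjusted p = 0.802). ROBO1, a main Slit receptor, was listed at 0 in all 3 LoVo-HM libraries and at 0.0616, 0.0518 and 0.112 FPKM in LoVo. ROBO2 and the endothelial member ROBO4 were listed at 0 in every library of both lines. ROBO3 was thus the only Robo transcript above 0 in LoVo-HM, and whether its product binds SLIT2 was not measured. SLIT2 made up 64.3 to 65.1% of the FPKM summed over Slits and Robos in LoVo-HM, against 2.73 to 6.25% in LoVo.

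The ephrins were all high enough to test, 2 of 8 higher, 3 lower and 3 not past the test. The shares were 25% higher and 37.5% lower, where 21.8% and 23.1% of all tested genes were. EFNA5, an A-type ephrin with a broad range of Eph partners (ENSG00000184349, chromosome 5, 107376889 to 107670895), was at 10.45, 11.1 and 10.8 FPKM in LoVo-HM, against 2.60, 2.80 and 2.52 FPKM in LoVo. Its groups lay far apart, with a ratio of 4.09 between the means of 10.8 ± 0.343 FPKM in LoVo-HM, against 2.64 ± 0.149 FPKM in LoVo (SD, n = 3 each) and a log2 difference of 1.70 ± 0.071 (limma adjusted p = 2.57e-07). EFNA2, another A-type ligand, was at 8.46, 9.68 and 7.39 FPKM in LoVo-HM, against 5.10, 3.06 and 5.76 FPKM in LoVo. It was higher in every LoVo-HM library with a wider spread (0.78 ± 0.181, limma adjusted p = 0.00787).

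Among the chromosome 1 neighbours, EFNA3 and EFNA1 fell. EFNA3 (155078872 to 155087538) was at 11.7, 10.7 and 10.6 FPKM in LoVo-HM, against 21.8, 18.0 and 20.2 FPKM in LoVo (-0.80 ± 0.079, limma adjusted p = 5.99e-05). EFNA1 (155127460 to 155134857), the A-type ephrin best known as the ligand of EPHA2, was at 5.34, 5.58 and 6.01 FPKM in LoVo-HM, against 11.5, 9.38 and 9.58 FPKM in LoVo (-0.74 ± 0.089, limma adjusted p = 0.000203). Neither gene overlapped between the lines. EFNA4 (155063731 to 155069553), the third neighbour, was at 8.12, 9.44 and 9.70 FPKM in LoVo-HM, against 8.37, 8.23 and 7.23 FPKM in LoVo, overlapped, and did not pass (0.17 ± 0.086, 95% interval -0.02 to 0.37, limma adjusted p = 0.138). The interval of EFNA4 does not meet those of its neighbours, and the difference between them was not itself tested. GENCODE 29 also has a gene on the same strand whose exons overlap both EFNA4 and EFNA3, so the split of reads between these 2 is uncertain.

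EFNB1 had the largest decrease on the log2(FPKM + 1) scale among guidance genes. This B-type ephrin (ENSG00000090776, chromosome X, 68828997 to 68842147) was at 7.61, 6.95 and 6.99 FPKM in LoVo-HM, against 24.3, 24.1 and 27.1 FPKM in LoVo. The LoVo-HM libraries stood well below the LoVo ones (-1.68 ± 0.068, limma adjusted p = 2.26e-07). EFNB2, the B-type ligand preferred by EPHB4, was at 15.1, 16.8 and 15.8 FPKM in LoVo-HM, against 15.7, 16.0 and 17.9 FPKM in LoVo, with overlapping groups (-0.05 ± 0.070, 95% interval -0.21 to 0.11, limma adjusted p = 0.57). EFNB3 was at 3.88 to 4.86 FPKM in LoVo-HM, against 5.23 to 5.56 FPKM in LoVo, and did not pass (limma adjusted p = 0.0646).

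The summed level of A-type ephrins was 44.0 to 46.5 FPKM in LoVo-HM, against 41.4 to 49.4 FPKM in LoVo, so the totals overlapped while their make-up differed. EFNA5 supplied 24.0 ± 0.259% of it in LoVo-HM and 5.86 ± 0.798% in LoVo (SD, n = 3 each), while EFNA3 supplied 24.5 ± 1.83% in LoVo-HM and 44.0 ± 0.621% in LoVo. B-type ephrins summed to 26.6 to 28.6 FPKM in LoVo-HM, against 45.2 to 50.6 FPKM in LoVo, without overlap. EFNB1 was 26.1 ± 1.73% of this sum in LoVo-HM and 53.4 ± 0.448% in LoVo, and EFNB2 was 57.6 ± 2.32% in LoVo-HM and 35.0 ± 0.384% in LoVo. The leading B-type transcript was thus EFNB2 in LoVo-HM and EFNB1 in LoVo.

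**Figure D2:**
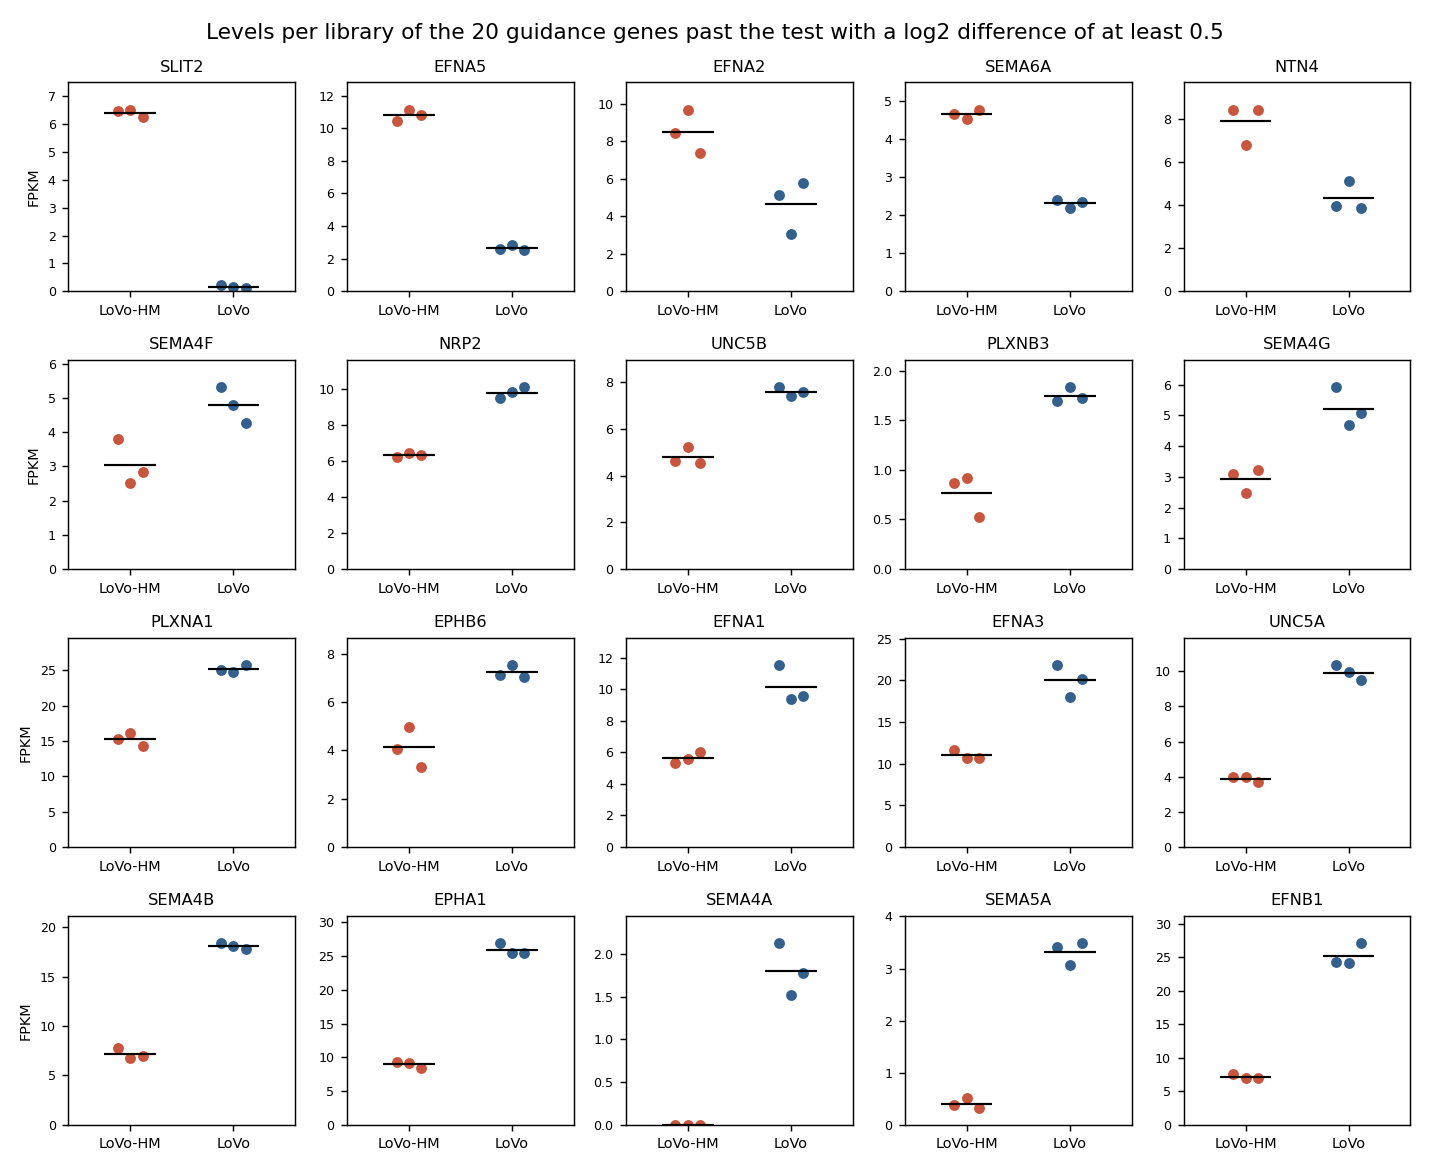
FPKM in each library (points) and the mean of each line (bar) for the 20 guidance genes that passed the test with an absolute log2 difference of at least 0.5, ordered from the largest increase to the largest decrease. The 2 lines do not overlap in any panel, which the selection of these genes makes likely, and 55% of all tested genes do not overlap. SEMA4A is listed at 0 in all 3 LoVo-HM libraries.

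Eph receptors were led by EPHA2 in both lines, the highest of all 70 guidance genes in each. EPHA2 (ENSG00000142627, chromosome 1, 16124337 to 16156087), often raised in carcinomas, was at 65.1, 65.3 and 62.1 FPKM in LoVo-HM, against 52.7, 50.1 and 49.7 FPKM in LoVo. It rose by a small amount without overlap (0.33 ± 0.046, a 1.26-fold ratio of FPKM, limma adjusted p = 0.000503). EPHB4 was at 31.5, 30.7 and 29.2 FPKM in LoVo-HM, against 27.0, 25.5 and 24.96 FPKM in LoVo, and rose less (0.23 ± 0.054, limma adjusted p = 0.00858). EPHB4 shares exon sequence with SLC12A9 on the opposite strand, and the strand setting of the counting is not given in the sources used here.

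Receptors that fell included EPHA1, the second A-type receptor by level (chromosome 7, 143390289 to 143408892). EPHA1 was at 9.34, 9.19 and 8.39 FPKM in LoVo-HM, against 26.9, 25.5 and 25.4 FPKM in LoVo (-1.43 ± 0.061, limma adjusted p = 3.09e-07), and its exons overlap those of ZYX on the opposite strand. EPHB6, a receptor without kinase activity, was at 4.08, 4.96 and 3.33 FPKM in LoVo-HM, against 7.13, 7.53 and 7.06 FPKM in LoVo (-0.70 ± 0.114, limma adjusted p = 0.00123). Both genes lay lower in every LoVo-HM library. EPHB2 and EPHB3 are receptors of the intestinal crypt, known there as targets of Wnt signalling. EPHB3 was at 3.75 to 4.32 FPKM in LoVo-HM, against 4.82 to 5.92 FPKM in LoVo, and passed (-0.30 ± 0.092, limma adjusted p = 0.0261), a call lost in 5 of 16 alternatives, such as without LoVo-HM replicate 2 (limma adjusted p = 0.0804) or without LoVo replicate 1 (limma adjusted p = 0.0867). EPHB2 was at 3.07 to 3.78 FPKM in LoVo-HM, against 3.44 to 4.91 FPKM in LoVo, and did not pass (-0.27 ± 0.124, limma adjusted p = 0.11). It passed without LoVo replicate 2 (limma adjusted p = 0.0169). EPHA10, a receptor without kinase activity, did not pass either (1.23 ± 0.196 FPKM in LoVo-HM, against 1.68 ± 0.127 FPKM in LoVo, SD, n = 3 each, limma adjusted p = 0.0665).

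Of the Eph receptors, 7 of 14 were too low to test, and of the 7 tested 71.4% were called, against 44.9% of all tested genes. EPHA3 was listed at 0 in all 3 LoVo-HM libraries and at 0.575, 0.301 and 0.499 FPKM in LoVo. EPHA4, EPHA7 and EPHB1 were also listed at 0 in LoVo-HM and reached at most 0.316 FPKM in LoVo, and EPHA8 reached at most 0.0118 FPKM in any library. Summed over the 14 receptors the level was 111 to 119 FPKM in LoVo-HM, against 119 to 127 FPKM in LoVo. EPHA2 accounted for 54.5 to 55.7% of it in LoVo-HM and 41.5 to 42.1% in LoVo, and EPHA1 for 7.52 to 7.82% in LoVo-HM and 21.2 to 21.4% in LoVo.

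**Figure D3:**
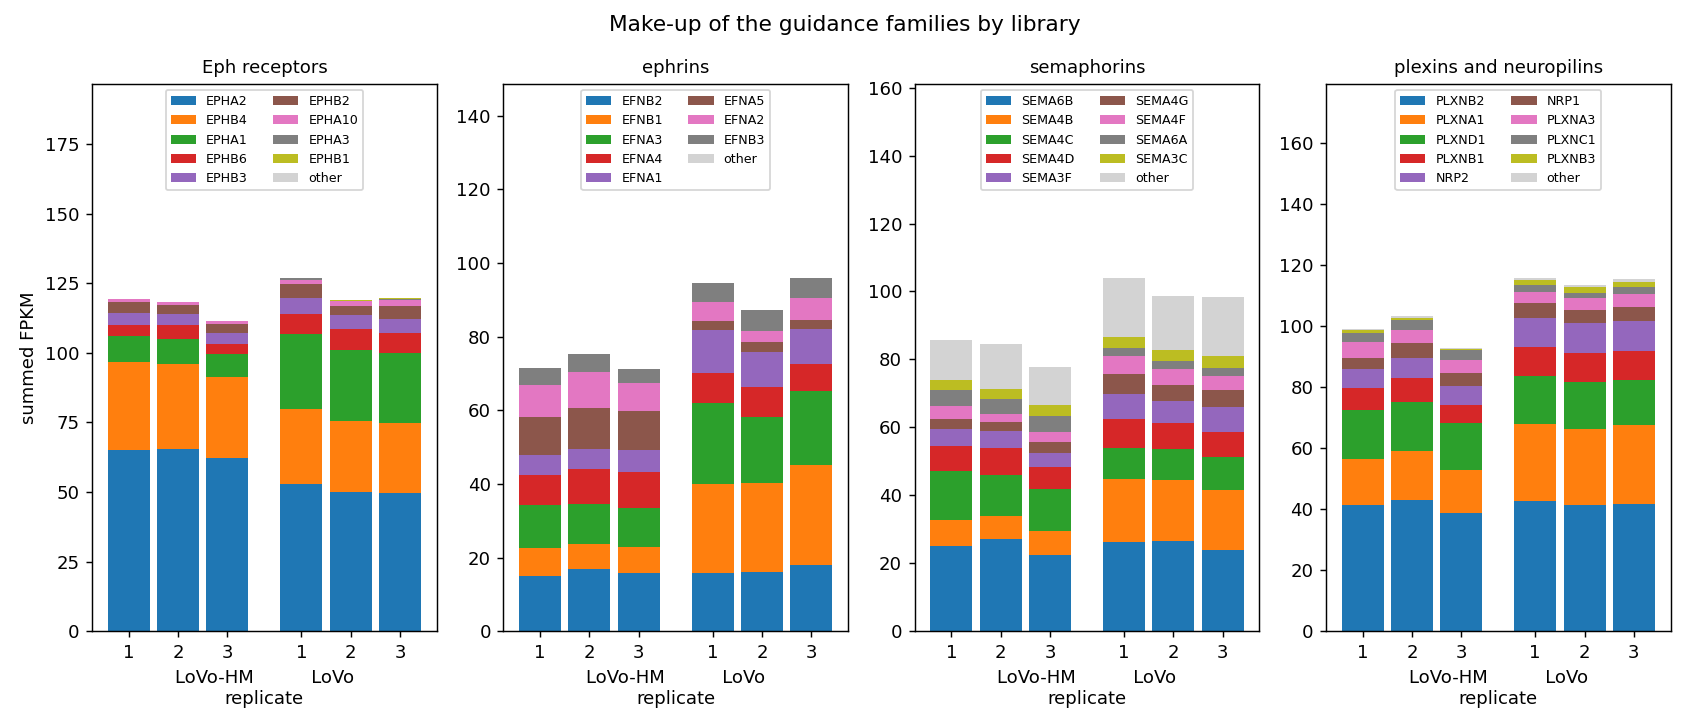
Summed FPKM of 4 guidance families in each library (LoVo-HM replicates left, LoVo replicates right), with coloured segments for the members with the highest mean and light grey for the rest. EPHA2 makes up 54.5 to 55.7% of the Eph receptor bars in LoVo-HM and 41.5 to 42.1% in LoVo, and among the ephrins the EFNA5 segment is larger and the EFNB1 segment smaller in LoVo-HM than in LoVo.

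Semaphorins had 16 of 20 members tested, of which 2 rose, 6 fell and 8 did not pass. The 50% called in either direction was near the 44.9% of all tested genes. By direction, 12.5% were higher and 37.5% lower, against 21.8% and 23.1% of all tested genes. The class 4 genes, membrane proteins that signal mainly through B-type plexins, all had enough signal to test. Of these, 4 of 6 fell (66.7%, against 23.1% of all tested genes). SEMA4B was at 7.77, 6.78 and 7.005 FPKM in LoVo-HM, against 18.4, 18.1 and 17.8 FPKM in LoVo (-1.22 ± 0.066, limma adjusted p = 1.31e-06). SEMA4A (chromosome 1, 156147366 to 156177752) was listed at 0 in all 3 LoVo-HM libraries, against 2.12, 1.51 and 1.77 FPKM in LoVo (-1.48 ± 0.117, limma adjusted p = 1.56e-05). The size of that difference depends on the pseudocount and is -4.24 with 0.1 in place of 1. It was -2.35 after each library was rescaled to a total of 1e+06, which raises all values and so acts like a smaller pseudocount. SEMA4G was at 3.10, 2.47 and 3.22 FPKM in LoVo-HM, against 5.91, 4.70 and 5.07 FPKM in LoVo (-0.66 ± 0.109, limma adjusted p = 0.00127), and shares exon sequence with MRPL43 on the opposite strand. SEMA4F was at 3.81, 2.52 and 2.83 FPKM in LoVo-HM, against 5.31, 4.78 and 4.27 FPKM in LoVo (-0.52 ± 0.127, limma adjusted p = 0.00987). None of these 4 genes overlapped between the lines.

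SEMA4C, a ligand of PLXNB2, went the other way and was the class 4 member that rose. It was at 12.3 to 14.3 FPKM in LoVo-HM, against 8.95 to 9.59 FPKM in LoVo (0.44 ± 0.072, limma adjusted p = 0.00124). SEMA4D, the ligand of PLXNB1, did not pass, at 6.40 to 7.76 FPKM in LoVo-HM, against 7.49 to 8.30 FPKM in LoVo (-0.12 ± 0.082, 95% interval -0.31 to 0.07, limma adjusted p = 0.277). Class 4 transcripts summed to 31.8 to 36.3 FPKM in LoVo-HM, against 45.8 to 49.4 FPKM in LoVo. SEMA4C was 39.0 ± 0.284% of this in LoVo-HM and 19.8 ± 0.972% in LoVo, and SEMA4B was 21.5 ± 0.357% in LoVo-HM and 38.5 ± 1.16% in LoVo (SD, n = 3 each).

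Outside class 4, SEMA5A had the largest ratio among the tested semaphorins with signal in both lines. This transmembrane protein with thrombospondin repeats (ENSG00000112902, chromosome 5, 9035026 to 9546075) was at 0.377, 0.511 and 0.332 FPKM in LoVo-HM, against 3.42, 3.06 and 3.49 FPKM in LoVo. The level in LoVo was 8.17-fold that in LoVo-HM, and the log2 difference was -1.62 ± 0.0997 (limma adjusted p = 3.21e-06), or -2.77 with a pseudocount of 0.1. SEMA6A, a transmembrane ligand of A-type plexins, was at 4.65, 4.52 and 4.76 FPKM in LoVo-HM, against 2.39, 2.19 and 2.35 FPKM in LoVo, and rose (0.77 ± 0.076, limma adjusted p = 6.46e-05). Its exons overlap 2 RNAs annotated on the opposite strand, and those of SEMA5A overlap 1. SEMA6B, the highest semaphorin in both lines, was at 24.997, 27.0 and 22.4 FPKM in LoVo-HM, against 26.3, 26.4 and 23.9 FPKM in LoVo, with overlap (-0.04 ± 0.076, 95% interval -0.21 to 0.13, limma adjusted p = 0.681).

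Of the secreted class 3 semaphorins, 5 were tested and 1 passed, SEMA3F, which was lower in LoVo-HM. The share called was 20%, against 44.9% of all tested genes, and the share lower was 20%, near the 23.1% of all tested genes. SEMA3F, a neuropilin-2 ligand, was at 4.24 to 5.12 FPKM in LoVo-HM, against 6.47 to 7.49 FPKM in LoVo (-0.47 ± 0.089, limma adjusted p = 0.00273). It has an antisense RNA over its exons. SEMA3A, SEMA3B, SEMA3C and SEMA3G were between 1.91 and 3.39 FPKM in all libraries, their differences ran from -0.08 to 0.16, and none passed. SEMA3D and SEMA3E were at most 0.0826 FPKM in LoVo-HM, against 0.00132 FPKM in LoVo. SEMA6C and SEMA7A did not pass (-0.11 ± 0.101 and -0.20 ± 0.094), and SEMA5B reached at most 0.0643 FPKM.

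Plexins and neuropilins, the receptors of semaphorins, had 10 of 11 members tested, of which 1 rose, 5 fell and 4 did not pass. The shares were 10% higher and 50% lower, against 21.8% and 23.1% of all tested genes. PLXNB2 was the highest in both lines, at 41.3, 42.9 and 38.7 FPKM in LoVo-HM, against 42.8, 41.3 and 41.7 FPKM in LoVo. Its groups overlapped, and the interval of its difference was narrow (-0.03 ± 0.051, 95% interval -0.15 to 0.08, limma adjusted p = 0.62). PLXND1, known best from vessels, likewise did not pass at 15.4 to 16.1 FPKM in LoVo-HM, against 15.0 to 15.9 FPKM in LoVo (0.03 ± 0.054, limma adjusted p = 0.652).

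PLXNA1, which pairs with neuropilins to read class 3 semaphorins, fell. It was at 15.2, 16.2 and 14.2 FPKM in LoVo-HM, against 25.1, 24.8 and 25.7 FPKM in LoVo (-0.69 ± 0.060, limma adjusted p = 2.82e-05). NRP2, the co-receptor of SEMA3F, was at 6.23, 6.46 and 6.30 FPKM in LoVo-HM, against 9.47, 9.81 and 10.1 FPKM in LoVo (-0.56 ± 0.062, limma adjusted p = 0.000132). Both were lower in 3 of 3 LoVo-HM libraries. SEMA3F also fell, and a link between these changes was not tested. Of the other A-type plexins tested, PLXNA2 fell and PLXNA3 was higher in LoVo-HM without passing. NRP1 did not pass, at 3.70 to 4.88 FPKM in LoVo-HM, against 4.28 to 4.82 FPKM in LoVo (-0.10 ± 0.099, 95% interval -0.32 to 0.13, limma adjusted p = 0.455). Both neuropilins have an antisense RNA over their exons.

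PLXNB3 was at 0.864, 0.923 and 0.524 FPKM in LoVo-HM, against 1.69, 1.83 and 1.72 FPKM in LoVo (-0.64 ± 0.117, limma adjusted p = 0.00225), and -1.12 with a pseudocount of 0.1. Its exons overlap those of SRPK3 on the same strand, so reads may be split between them. Smaller decreases were measured for PLXNB1, the SEMA4D receptor (6.93 ± 1.06 FPKM in LoVo-HM, against 9.47 ± 0.254 FPKM in LoVo, SD, n = 3 each, -0.41 ± 0.098, limma adjusted p = 0.00941), and PLXNA2 (0.334 ± 0.0443 FPKM in LoVo-HM, against 0.746 ± 0.0435 FPKM in LoVo, -0.39 ± 0.104, limma adjusted p = 0.0155). The value of PLXNA2 was -0.97 with a pseudocount of 0.1 and -0.60 after rescaling to the same total, which also acts like a smaller pseudocount. PLXNC1, the SEMA7A receptor, was the plexin that rose, at 2.99 to 3.15 FPKM in LoVo-HM, against 1.77 to 2.34 FPKM in LoVo (0.37 ± 0.09996, limma adjusted p = 0.0161), and it overlaps CEP83 on the opposite strand. PLXNA3 did not pass (0.24 ± 0.092, limma adjusted p = 0.064) although its groups did not overlap, and PLXNA4 reached at most 0.00406 FPKM. PLXNA3 passed with quantile normalization (limma adjusted p = 0.0142), after rescaling (0.0473) and without LoVo-HM replicate 2 (0.0498).

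In the netrin system, 5 of 10 members were tested, of which 1 rose, 3 fell and 1 did not pass. The 80% called, on 5 genes, stands beside 44.9% of all tested genes. UNC5A, a netrin receptor of the kind that can trigger cell death when unbound (ENSG00000113763, chromosome 5, 176810477 to 176880898), was at 3.97, 3.98 and 3.69 FPKM in LoVo-HM, against 10.3, 9.95 and 9.48 FPKM in LoVo. It fell without overlap (-1.16 ± 0.069, limma adjusted p = 2.6e-06), and its exons overlap those of HK3 on the opposite strand. UNC5B was at 4.65, 5.24 and 4.53 FPKM in LoVo-HM, against 7.79, 7.42 and 7.61 FPKM in LoVo (-0.57 ± 0.074, limma adjusted p = 0.000343). UNC5C reached at most 0.140 FPKM and UNC5D was listed at 0. The summed level of the 4 UNC5 genes was 8.31 to 9.33 FPKM in LoVo-HM, against 17.2 to 18.3 FPKM in LoVo.

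The ligands moved in opposite directions. NTN4, a basement membrane netrin that binds laminin, was at 8.46, 6.82 and 8.46 FPKM in LoVo-HM, against 3.96, 5.15 and 3.88 FPKM in LoVo, and rose (0.74 ± 0.116, limma adjusted p = 0.000971). NTN1, the classical netrin, fell to 5.16 ± 0.296 FPKM in LoVo-HM, against 6.999 ± 0.284 FPKM in LoVo (SD, n = 3 each, -0.38 ± 0.072, limma adjusted p = 0.00298). NTN4 was 56.3 ± 3.66% of netrin FPKM in LoVo-HM and 36.6 ± 4.48% in LoVo, and NTN1 was 37.0 ± 3.84% in LoVo-HM and 59.4 ± 3.16% in LoVo. NTN3 was too low to test, at 0.757, 0.516 and 0.582 FPKM in LoVo-HM, against 0.307, 0.238 and 0.363 FPKM in LoVo, and NTN5 reached at most 0.400 FPKM. NEO1, which encodes neogenin, was the highest gene of the system by mean in each line, at 11.1, 9.96 and 8.29 FPKM in LoVo-HM, against 11.2, 8.65 and 10.7 FPKM in LoVo. Its groups overlapped (-0.05 ± 0.119, 95% interval -0.32 to 0.22, limma adjusted p = 0.752). DCC was listed at 0 in 5 of 6 libraries and at 0.00546 FPKM in LoVo replicate 2.

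Set out by role, the members were 35 ligand genes and 35 receptor genes. Of the ligands 27 were tested, with 6 higher (22.2%, near the 21.8% of all tested genes) and 10 lower in LoVo-HM (37.0%, against 23.1%), and their summed level was 170 to 179 FPKM in LoVo-HM, against 199 to 211 FPKM in LoVo. Of the receptors 21 were tested, with 3 higher (14.3%, against 21.8% of all tested genes) and 10 lower (47.6%, against 23.1%), and their summed level was 224 to 244 FPKM in LoVo-HM, against 263 to 275 FPKM in LoVo. Whether ligands and receptors differ in these shares was not tested. Over all 70 genes the sum was 394 to 424 FPKM in LoVo-HM, against 461 to 486 FPKM in LoVo.

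Downstream of the receptors, a list of 50 intracellular effectors (such as kinases, adaptors and cytoskeletal proteins) had 43 tested members, of which 11 rose, 11 fell and 21 did not pass, with a median log2 difference of -0.06. Each direction held 25.6% of them, near the 21.8% higher and 23.1% lower of all tested genes. DPYSL3, a CRMP-family protein of the semaphorin pathway, had the largest difference, at 5.48 ± 0.260 FPKM in LoVo-HM, against 21.8 ± 0.439 FPKM in LoVo (-1.81 ± 0.060, limma adjusted p = 6.06e-08). The Slit-Robo GTPase-activating proteins went different ways. SRGAP2 rose to 18.9 ± 1.57 FPKM in LoVo-HM, against 10.4 ± 0.181 FPKM in LoVo (0.80 ± 0.069), SRGAP3 fell to 0.753 ± 0.0471 FPKM in LoVo-HM, against 2.30 ± 0.240 FPKM in LoVo (-0.91 ± 0.099, or -1.49 with a pseudocount of 0.1), and SRGAP1 did not pass (-0.18, limma adjusted p = 0.281). SRGAP2 has near-identical partial copies in the human genome, so its value is uncertain.

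Among actin-linked effectors, ABLIM1, an actin-binding protein of the netrin pathway, rose to 11.9 ± 1.70 FPKM in LoVo-HM, against 4.90 ± 0.594 FPKM in LoVo (1.12 ± 0.112, limma adjusted p = 6.96e-05). ARHGEF12, a protein bound by B-type plexins, rose (0.51 ± 0.053), as did CHN1, which acts below Eph receptors (0.81 ± 0.095). RND3 fell (-0.51 ± 0.056), as did RRAS, which plexins switch off (-0.67 ± 0.075).

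**Figure D4:**
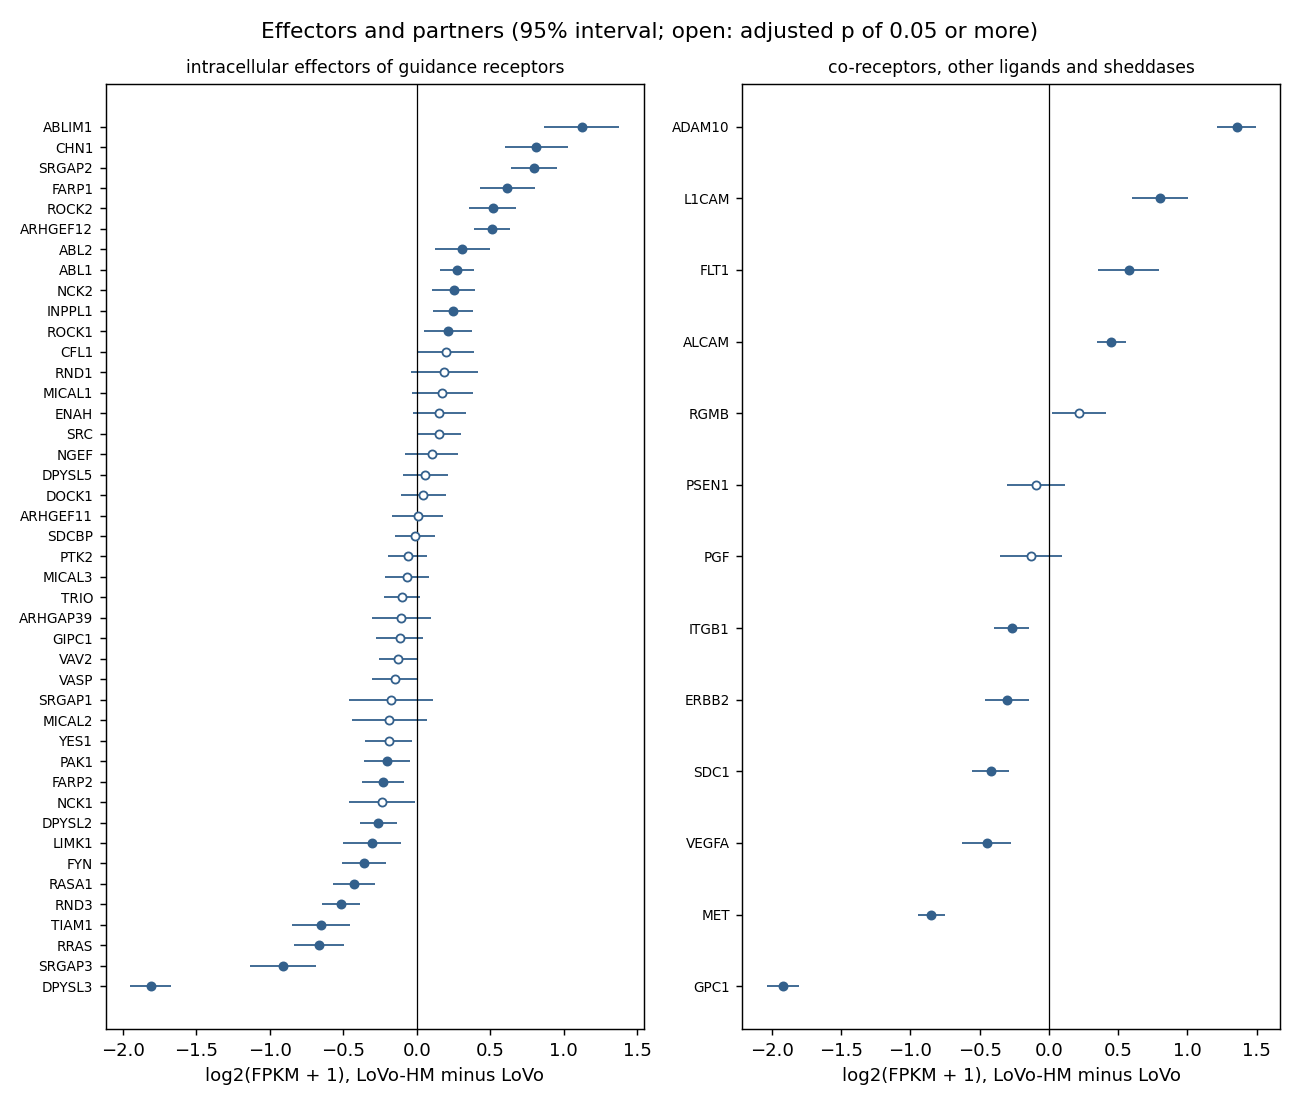
Log2(FPKM + 1) differences, LoVo-HM minus LoVo, with 95% intervals from limma for the 43 tested effectors (left) and the 13 tested partners (right). Filled points passed the test; effectors split into 11 higher and 11 lower, and GPC1 at -1.92 and ADAM10 at 1.36 are the extremes among partners.

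A second list held 25 co-receptors, other ligands and sheddases, of which 13 were tested, 4 rose, 6 fell and 3 did not pass, with a median of -0.13. The 76.9% called stands beside 44.9% of all tested genes. GPC1, a heparan sulphate proteoglycan that binds Slit, fell to 23.8, 24.5 and 23.0 FPKM in LoVo-HM, against 97.4, 91.6 and 89.0 FPKM in LoVo (-1.92 ± 0.051, limma adjusted p = 1.58e-08). SDC1, another heparan sulphate carrier, fell less (-0.42 ± 0.058). ADAM10, the protease that cuts ephrins from the cell surface, rose to 29.5, 28.7 and 31.6 FPKM in LoVo-HM, against 10.499, 11.5 and 11.3 FPKM in LoVo (1.36 ± 0.061, limma adjusted p = 4.22e-07). L1CAM, a neuropilin-1 partner, rose to 7.49 ± 0.673 FPKM in LoVo-HM, against 3.86 ± 0.333 FPKM in LoVo (0.80 ± 0.088). The adhesion molecule ALCAM rose (0.45 ± 0.045). FLT1, a VEGF receptor, rose (0.57 ± 0.097), and VEGFA, which binds neuropilins, fell (-0.45 ± 0.077). MET, which B-type plexins can engage, fell (-0.85 ± 0.041).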

How the data were processed

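Per the labels' protocols, RNA came from Trizol extraction and libraries from a TruSeq RNA kit of Illumina, 3 for LoVo-HM and 3 for LoVo. Expression was deposited by the authors as FPKM in a single table of 24580 rows, of which 4606 are gene models without a symbol. Per the submitters' processing notes the build was GRCh38. Neither the aligner and counter nor the annotation release, strand setting or depth was given in the sources used here. Values below 0.3 FPKM showed no steps worth 1 read (the commonest bin of 0.05 log2 units held 2.74 to 3.40% of ratios), so no counts were recovered.

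Values were used as deposited, as log2(FPKM + 1), without scaling. The 14487 genes averaging 0.5 FPKM or more were compared with two-sided moderated tests of limma 3.58.1 (R 4.3.3), using a trend of variance on intensity. Benjamini-Hochberg values under 0.05 over all tested genes were called. Intervals are 95% intervals from the same fit. No set test was run. In a simulation of 14487 genes with 200 changed, 8% of changes of 0.25 log2 units, 80% at 0.5 and 100% at 1 were recovered, with 4.64% false calls. The changed genes were drawn only from the better expressed genes. In the data 6508 genes were called, which makes the adjusted threshold less strict than in the simulation. These rates therefore do not describe recovery in the data.

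Members followed a symbol rule and all 70 matched GENCODE 29. The members, lists and tests were chosen with earlier results of these data known. Values in every library are given for members that passed with an absolute log2 difference of at least 0.5, for the 2 highest of each family, and for untested members that differed by at least 0.2 FPKM. From the 2 other pathway lists up to 8 members with the smallest p are named, and SRGAP1 was added after its value was seen. Promoters are from RefSeq (GRCh38.p14). Alternatives were pseudocounts of 0.1 and 0.5, no filter, a filter at 2 FPKM, rescaling to a total of 1e+06, median-ratio scaling, quantile normalization, no trend, a robust trend, a replicate block, and each library left out in turn.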

Additional observations from a re-analysis of the deposited data

How the results depend on the processing

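Over the 16 alternatives, guidance genes higher in LoVo-HM numbered 9 to 11 and those lower 16 to 22, 16 with a minimum mean of 2 FPKM, under which fewer genes were tested. Of the 29 calls, 28 kept their direction and their side of the threshold in every alternative in which they were fitted, and EPHB3 did not. No member that passed changed sign. Calls were gained in some alternatives for EPHA10 (no intensity trend, limma adjusted p = 0.0339), SEMA3A (quantile normalization, 0.043), EPHB2 and PLXNA3. The median log2 difference of tested members was -0.16, and it was -0.082 without a filter on low values and -0.080 with quantile normalization. The median over all tested genes was 0.003, 0.0007 and 0.042 in the same order. The fit without a filter also took in the 15 members above 0 that were too low to test. The cause of these shifts was not tested. Without 1 library each, the median of tested members ran from -0.20 to -0.13, and the count of all genes called from 5484 to 5986, against 6508. Effectors called numbered 8 to 14 higher and 8 to 13 lower, and partners 4 to 5 higher and 6 to 7 lower. Without a filter, EPHA3 (adjusted p = 0.00296) and SLIT1 (0.00791), too low to test otherwise, were called lower and NTN3 (0.0247) higher by limma, and all 3 were also called after rescaling to the same total. Deviations of same-numbered libraries of the 2 lines had correlations of -0.007, 0.022 and 0.026. Those of differently numbered libraries ran from -0.075 to 0.055. No pairing by number was seen, but with 3 libraries per line this check cannot exclude one. With the replicate block 9 members were higher and 20 lower, and 6459 of all genes were called. The unknown depth and the pseudocount limit the size given for low genes.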
